A study of Homo sapiens with 4 samples.

Results

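The 10 genes described here encode proteins that hold cells to their neighbours. They are VCAM1, ICAM1, L1CAM and MCAM of the immunoglobulin (Ig) superfamily, the claudins CLDN1 and CLDN11, and the cadherins CDH2, CDH6, CDH11 and CDH13. They were picked by symbol out of 22679 named genes, with their FPKM in these same libraries already known, so their levels and differences are given as descriptions and no test was made on them. FPKM scales the fragments of a gene by its transcript length and by the library total, and allows levels to be set side by side between genes of different length. All 10 were found, and all 10 were among the 12183 genes compared, which reached 1 FPKM in 1 library or more. ICAM1 was listed only in a locus joined with ICAM4, the next protein-coding gene beside it in RefSeq, and the value of that ICAM1,ICAM4 locus cannot be divided between them. The other 9 genes had a locus of their own.

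Poly(A) RNA was sequenced from IMR90 cells, a human lung fibroblast line, at passage 16, harvested with trypsin. Cells in oncogene-induced senescence (OIS) carried ER:RasV12, an H-RasV12 oncogene in a retroviral construct that tamoxifen induces, and were kept in 10 nM tamoxifen for 8 days. Cells given a retroviral, Flag-tagged histone H3.3 in its cleaved form (H3.3cs1) were taken 13 days after infection (late) and 3 days after infection (early). Growing cells carried the empty retroviral vector pBabe and were grown for 13 days. There was 1 library per group and there are no replicates, so a difference compares these libraries and carries no SD or p-value. Construct, tamoxifen and days in culture cannot be told apart between OIS and growing cells, and time since infection cannot be told apart from the histone between early and growing cells. In bulk RNA, fewer cells that express a gene and less RNA per cell cannot be told apart.

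VCAM1 and ICAM1 are the counter-receptors on a cell's surface for integrins of leukocytes, and inflammatory cytokines are known to induce them through NF-kappaB in endothelial cells and fibroblasts. L1CAM and MCAM are Ig superfamily proteins best known from neurons and from endothelial and mural cells. Claudins are membrane proteins that build the strands of tight junctions, CLDN1 in epithelia such as the epidermis and CLDN11 in myelin and between Sertoli cells. Cadherins bind the same cadherin on a neighbouring cell in a calcium-dependent way and are tied to actin by catenins. CDH2 (N-cadherin) and CDH11 (OB-cadherin) are the usual cadherins of mesenchymal cells.

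HRAS and the H3.3 genes were read as checks of the labels. HRAS reached 3153 FPKM in OIS, with 41.9 in H3.3cs1 late, 49.8 in H3.3cs1 early and 47.4 in growing cells, and H3F3B, an H3.3 gene, stood at 90.5, 450, 229 and 105 FPKM in the same order. H3F3A, the other H3.3 gene, had 236 FPKM in OIS, 132 in H3.3cs1 late, 129.55 in H3.3cs1 early and 190.49 in growing cells. In the H3.3cs1 libraries H3F3B thus stood more than 2-fold above growing cells, and H3F3A below them by less than 2-fold. Which H3.3 gene the construct holds is not in the labels. VIM, the mesenchymal filament protein vimentin, lay between 2291 and 3281 FPKM. All 7 fibroblast markers with a locus of their own were above 1 FPKM in every library. None of the 7 leukocyte markers with a locus of their own reached 1 FPKM. A further leukocyte marker, CD68, was listed only in the joined CD68,MPDU1 locus, which cannot be divided. That locus had 89.4 FPKM in OIS, 39.3 in H3.3cs1 late, 52.3 in H3.3cs1 early and 56.2 in growing cells. Between 47.4% and 57.9% of a library's summed FPKM lay in loci without a gene name, which were left out. A value of 0 was given to 63 to 87 compared genes per library, and since a listed 0 may be a failed estimate it is not read as absence. The words higher, lower, rose and fell are used where log2(FPKM + 1) differed by at least 1, that is 2-fold, and every fold below is on that scale, which understates changes of low genes.

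By that rule, 4 of the 10 adhesion genes rose and 4 fell in OIS against growing cells, where 9.13% of all compared genes were higher and 8.17% lower. In H3.3cs1 late against growing cells 3 rose and 2 fell, beside 3.51% of all genes higher and 5.47% lower. In H3.3cs1 early against growing cells 0 rose and 3 fell, beside 1.4% higher and 3.96% lower. In H3.3cs1 late against H3.3cs1 early 4 rose and 0 fell, beside 5.47% higher and 3.4% lower. In OIS against H3.3cs1 late 1 rose and 3 fell, beside 11.2% higher and 8.51% lower. The genes were chosen on these values, so the counts are not read against those shares, and the comparisons with growing cells share the growing library. The share of higher genes among all called genes depended on scaling: it was 52.8% in OIS against growing cells and 37.7% with the named genes of each library rescaled to the same sum, 26.1% and 48.3% in H3.3cs1 early against growing cells, 61.7% and 36.4% in late against early, and 56.8% and 41.3% in OIS against late. Centring on the library median also moved it, to 49.1% against 39.1% for H3.3cs1 late over growing cells and to 43% for OIS over late.

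**Figure D1:**
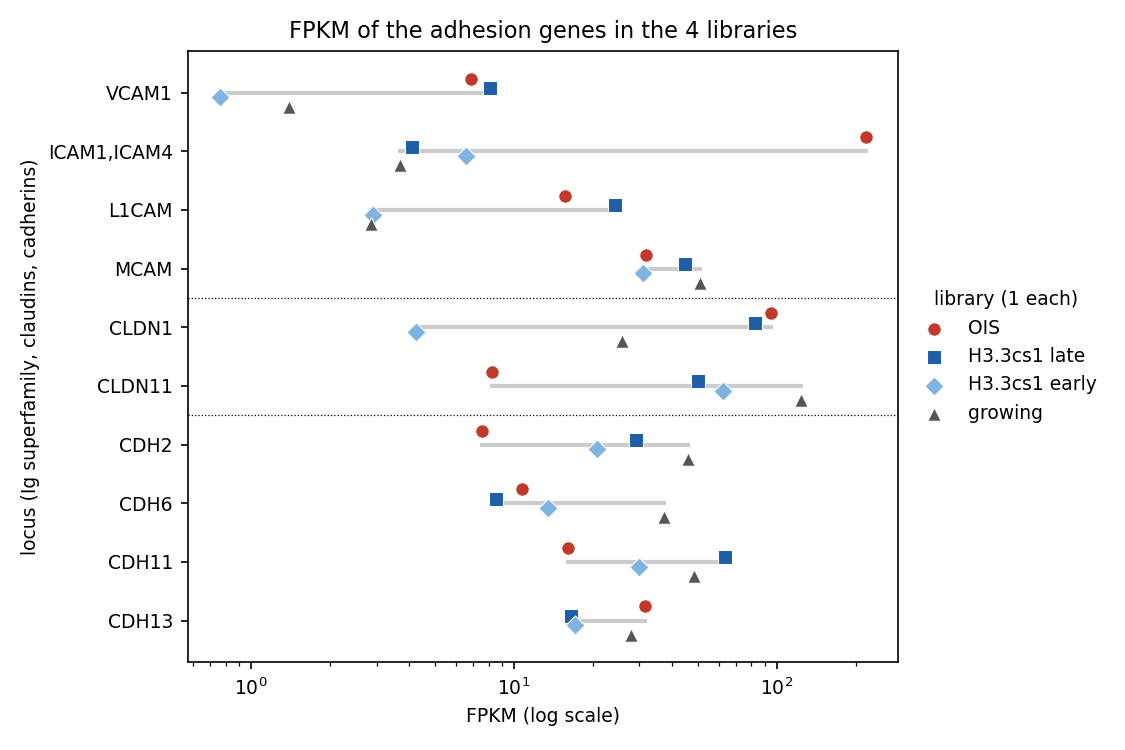
FPKM of each adhesion gene (log axis) in the libraries of OIS, H3.3cs1 late, H3.3cs1 early and growing cells, 1 point per library, with a grey bar over the range and dotted lines between the Ig superfamily, claudins and cadherins. The ICAM1,ICAM4 locus at 218 FPKM in OIS lies far to the right of its other 3 points, and MCAM has the narrowest spread.

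The leukocyte counter-receptors parted from each other. VCAM1 stood at 6.89 FPKM in OIS, 8.12 in H3.3cs1 late, 0.760 in H3.3cs1 early and 1.39 in growing cells. It was high in the OIS and late libraries, which lay within 1.16-fold of each other, and low in the others. It rose 3.297-fold in OIS and 3.81-fold in H3.3cs1 late against growing cells, and 5.18-fold in late against early. Even in the late library it lay in the middle of the compared genes (percentile 49.4).

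The ICAM1,ICAM4 locus stood at 218 FPKM in OIS, 4.10 in H3.3cs1 late, 6.56 in H3.3cs1 early and 3.70 in growing cells. OIS was alone in being high, 46.7-fold over growing cells and 42.9-fold over H3.3cs1 late, and the other 3 libraries lay within 1.61-fold of each other. The difference between OIS and growing cells ranked at place 30 from the highest among the 12183 genes, and the locus moved to percentile 97.2 of the OIS library, against 27.3 of the growing library. In OIS the locus held 31.7 times the FPKM of VCAM1, while in H3.3cs1 late it held 0.505 times as much and in growing cells 2.65 times. ICAM5, which follows ICAM4 in RefSeq and encodes an Ig adhesion protein of neurons, had 33.7 FPKM in OIS, 9.56 in late, 3.53 in early and 13.0 in growing cells, a rise of 2.47-fold in OIS and a fall of 3.10-fold in H3.3cs1 early.

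The promoters of both counter-receptors are shown because NF-kappaB sites in them are textbook examples, with the 250 bases before the RefSeq start, build GRCh38.p14, 5′ to 3′ on the gene's strand. Capitals mark matches to GGNNNTTCC on either strand. The VCAM1 window is chr1:100719492-100719741 and the ICAM1 window chr19:10270870-10271119, both on the plus strand.
VCAM1: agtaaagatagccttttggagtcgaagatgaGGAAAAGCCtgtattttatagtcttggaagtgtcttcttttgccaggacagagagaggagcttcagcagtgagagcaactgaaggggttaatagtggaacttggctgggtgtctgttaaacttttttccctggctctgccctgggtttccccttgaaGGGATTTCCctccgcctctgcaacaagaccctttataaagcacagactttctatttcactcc
ICAM1: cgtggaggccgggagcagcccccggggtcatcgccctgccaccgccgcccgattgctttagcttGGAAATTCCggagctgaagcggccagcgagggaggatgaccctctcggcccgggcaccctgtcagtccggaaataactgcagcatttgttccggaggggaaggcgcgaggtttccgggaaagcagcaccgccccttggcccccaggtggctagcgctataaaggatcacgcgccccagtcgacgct
VCAM1 held a match whose bases lay 62 to 54 before the start and, on the other strand, a match 219 to 211 before it. ICAM1 held GGAAATTCC, 186 to 178 bases before its start, which reads as the motif on both strands. The same motif was found in 17.1% of 35116 RefSeq windows of this length, a narrower NF-kappaB motif of 10 letters in 1.73% of them and in no window of the adhesion genes. RefSeq windows were at hand for 7 of the 10 genes (10 windows), of which a second CDH2 window also matched GGNNNTTCC. The AP-1 motif TGANTCA (6.57% of all windows) was found in that CDH2 window alone, and the E-box CACCTG (17.5% of all windows) in those of ICAM1 and MCAM. A match describes the letters of the window and does not show binding. The marked matches were not compared with the known sites, which this motif can miss.

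The NF-kappaB genes, taken as a list of subunits, inhibitors and targets, had 7 of 11 members higher and 0 lower in OIS. Of all genes, 9.13% were higher and 8.17% lower there. The list had a median log2 difference of 1.09 against 0.032 over all genes. REL, an NF-kappaB subunit and 1 of the 7, reached 1 FPKM in OIS alone (2.02 FPKM, against 0.428 in growing cells), so it could enter only as high there. TNFAIP3, an inhibitor that NF-kappaB itself induces, rose 5.22-fold to 21.0 FPKM in OIS, against 3.22 in growing cells, BIRC3, an inhibitor of cell death, rose 4.88-fold, RELB, an NF-kappaB subunit, 4.16-fold and NFKBIA, which holds NF-kappaB in the cytoplasm, 3.62-fold. In H3.3cs1 late 0 of the 11 were higher and 2 lower, beside 3.51% and 5.47% of all genes. The median there was -0.70, against -0.04 over all genes. TNFAIP3 stood at 0.868 FPKM and NFKBIA at 5.91 in that library, against 3.22 and 13.7 in growing cells. In H3.3cs1 early 0 of 11 passed in either direction. NF-kappaB activity was not measured, and its part in the levels of VCAM1 and of the ICAM1,ICAM4 locus was not tested.

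The integrins and linkers that meet these counter-receptors were given by a list of their own. Of 7 compared genes 1 rose and 2 fell in OIS, and 0 rose and 1 fell in H3.3cs1 late. Of all genes, 9.13% were higher and 8.17% lower in OIS, and 3.51% and 5.47% in late. ITGA4, the alpha chain of the VCAM1-binding integrin VLA-4, fell 2.58-fold in OIS and 2.38-fold in H3.3cs1 late, with 2.94, 3.28, 5.20 and 9.17 FPKM in OIS, late, early and growing cells. EZR, the ezrin that ties membrane proteins such as ICAM1 to actin, fell 6.00-fold in OIS, to 9.47 FPKM against 61.8 in growing cells. ITGAX, a leukocyte integrin chain, entered through OIS alone, at 1.96 FPKM there against 0.0426 in growing cells. ITGB1, the chain shared by most integrins of fibroblasts, lay between 1019 and 1503 FPKM. Of the selectins that catch leukocytes on inflamed endothelium, SELE was listed at 0 in all 4 libraries, and SELP was listed at 0.0115 FPKM in H3.3cs1 late and at 0 in the others.

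Markers of endothelial cells were also highest in OIS, with a summed 22.5 FPKM in OIS, 1.52 in H3.3cs1 late, 2.53 in H3.3cs1 early and 3.32 in growing cells over 10 genes, and 4 of the 10 at 1 FPKM or more in OIS. CLDN5 (11.6 FPKM), ROBO4 (4.47) and TIE1 (4.05) made up most of the OIS sum. The defining markers CDH5, KDR and EMCN were listed at 0 in OIS, and PECAM1 stood at 0.115 FPKM. The part of such cells in the OIS values was not tested.

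L1CAM resembled VCAM1. It stood at 15.6 FPKM in OIS, 24.2 in H3.3cs1 late, 2.91 in H3.3cs1 early and 2.86 in growing cells. The OIS and late libraries were high, 1.52-fold apart, and the early and growing libraries were low and 1.01-fold apart. L1CAM rose 4.303-fold in OIS and 6.53-fold in H3.3cs1 late against growing cells, and 6.45-fold in late against early. The rise in late over growing cells was at place 29 from the highest of 12183. NFASC, a neuronal relative of L1CAM, had 0.462 FPKM in OIS, 5.62 in late, 0.670 in early and 0.508 in growing cells, so it was high in the late library alone. The summed neural and glial markers, over 8 genes, were 2.77 FPKM in OIS, 0.833 in late, 1.84 in early and 0.528 in growing cells, with SOX2 listed at 0 in all 4.

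MCAM (CD146) varied least of the 10. It stood at 31.7 FPKM in OIS, 44.6 in H3.3cs1 late, 30.8 in H3.3cs1 early and 51.0 in growing cells. Its range over the 4 libraries was 1.63-fold, and no comparison passed 2-fold. The pericyte and smooth muscle markers, which MCAM often accompanies in vessel walls, summed to 89.3 FPKM in OIS, 128 in late, 109 in early and 145 in growing cells over 8 genes. MCAM and that sum had the growing library highest and the late library next. Of the 8 markers taken singly, only ABCC9 did so. RGS5 was highest in OIS (10.5 FPKM, against 2.38 in growing cells) and PDGFRB in late (64.1, against 52.8).

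The other Ig superfamily adhesion genes (35 listed, 19 compared) had 1 gene that rose and 5 that fell in OIS. In H3.3cs1 late 3 rose and 0 fell, and in H3.3cs1 early 0 rose and 1 fell. Their median log2 differences were -0.15, 0.20 and -0.34, against 0.032, -0.04 and -0.025 over all genes. Of all genes, 9.13% were higher and 8.17% lower in OIS, 3.51% and 5.47% in late, and 1.4% and 3.96% in early. ALCAM, a receptor for CD6 of T cells, fell 5.88-fold in OIS to 22.3 FPKM, with 111 in late, 114 in early and 136 in growing cells. THY1, a GPI-anchored fibroblast surface protein, had 151 FPKM in OIS, against 453 in growing cells, a fall of 2.98-fold. BCAM, a laminin receptor, fell 3.39-fold in OIS. The 3 rises in H3.3cs1 late were NFASC (4.39-fold), the nectin-like CADM4 (3.00-fold, to 12.6 FPKM against 3.52) and F11R, junctional adhesion molecule A (2.45-fold, to 1.96 FPKM against 0.208). In late against early 6 of the 19 rose and 0 fell, beside 5.47% higher and 3.4% lower of all genes. NFASC, counted in both, reached 1 FPKM in the late library alone, so its place among the rises follows from how it entered.

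**Figure D2:**
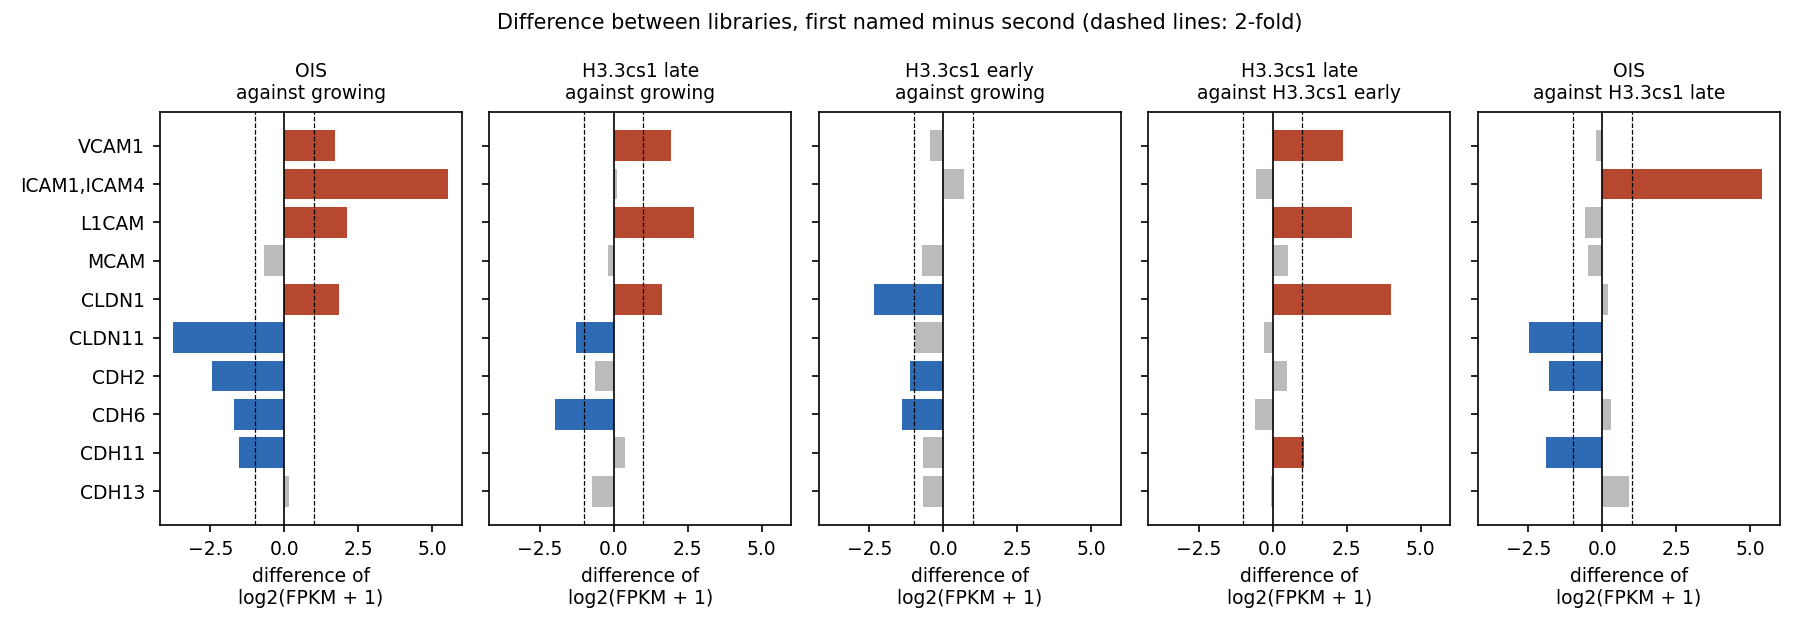
Difference of log2(FPKM + 1) for each adhesion gene in 5 comparisons, first named library minus second. Red bars are at least 2-fold higher, blue bars at least 2-fold lower, grey bars neither, and the dashed lines mark 2-fold. VCAM1, L1CAM and CLDN1 are red in OIS, in H3.3cs1 late and in late against early.

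The claudins exchanged places. CLDN1 stood at 94.7 FPKM in OIS, 82.3 in H3.3cs1 late, 4.24 in H3.3cs1 early and 25.7 in growing cells. The OIS and late libraries lay 1.15-fold apart at the top and the early library lay far below. CLDN1 rose 3.58-fold in OIS and 3.12-fold in H3.3cs1 late against growing cells and fell 5.10-fold in H3.3cs1 early, at place 49 from the lowest difference. It rose 15.9-fold in late against early, at place 28 from the highest.

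CLDN11 stood at 8.22 FPKM in OIS, 50.04 in H3.3cs1 late, 62.2 in H3.3cs1 early and 123 in growing cells. The growing library was the highest and OIS the lowest by 5.54-fold below late. CLDN11 fell 13.5-fold in OIS, at place 62 from the lowest difference, and 2.43-fold in H3.3cs1 late, and in H3.3cs1 early it was 1.96-fold below growing cells, just short of 2-fold.

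The ratio of CLDN1 to CLDN11 FPKM was therefore 11.5 in OIS, 1.65 in H3.3cs1 late, 0.0683 in H3.3cs1 early and 0.209 in growing cells. Over the 20 claudins with a locus of their own, CLDN1 made up 66.9% of the summed FPKM in OIS and 56.8% in H3.3cs1 late, while CLDN11 made up 71.3% in H3.3cs1 early and 73.9% in growing cells. The claudin sums were 142, 145, 87.2 and 166 FPKM in the same order, so in OIS and late the leading claudin changed with less change in the sum. Of the other claudins, 19 were listed and 5 compared. CLDN5, the claudin of endothelium, rose 10.7-fold in OIS to 11.6 FPKM, against 0.178 in growing cells, and entered through OIS alone. CLDN4 (2.07-fold) and CLDN23 (2.84-fold), epithelial claudins, rose in H3.3cs1 early, to 4.25 and 4.72 FPKM against 1.54 and 1.01 in growing cells. In H3.3cs1 late 0 of the 5 passed. Over all genes, 9.13% were higher in OIS and 1.4% in early, and in late 3.51% were higher and 5.47% lower.

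Other proteins share the tight junction with claudins. OCLN, occludin, lay between 0.395 FPKM in OIS and 1.02 in H3.3cs1 late, and TJP1, the scaffold ZO-1, between 14.7 in OIS and 23.2 in late. Of 4 compared genes of that list only PARD6B, a polarity protein, passed 2-fold, in OIS (1.79 FPKM, against 0.0900 in growing cells), and it entered through OIS alone. Over all genes, 9.13% were higher and 8.17% lower in OIS. The epithelial markers summed to 5.77 FPKM in OIS, 3.05 in H3.3cs1 late, 6.37 in H3.3cs1 early and 3.44 in growing cells over 10 genes, KRT5 and ESRP1 were listed at 0 in all 4 libraries, and CLDN4 was the marker that passed 1 FPKM in OIS, early and growing cells.

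**Figure D3:**
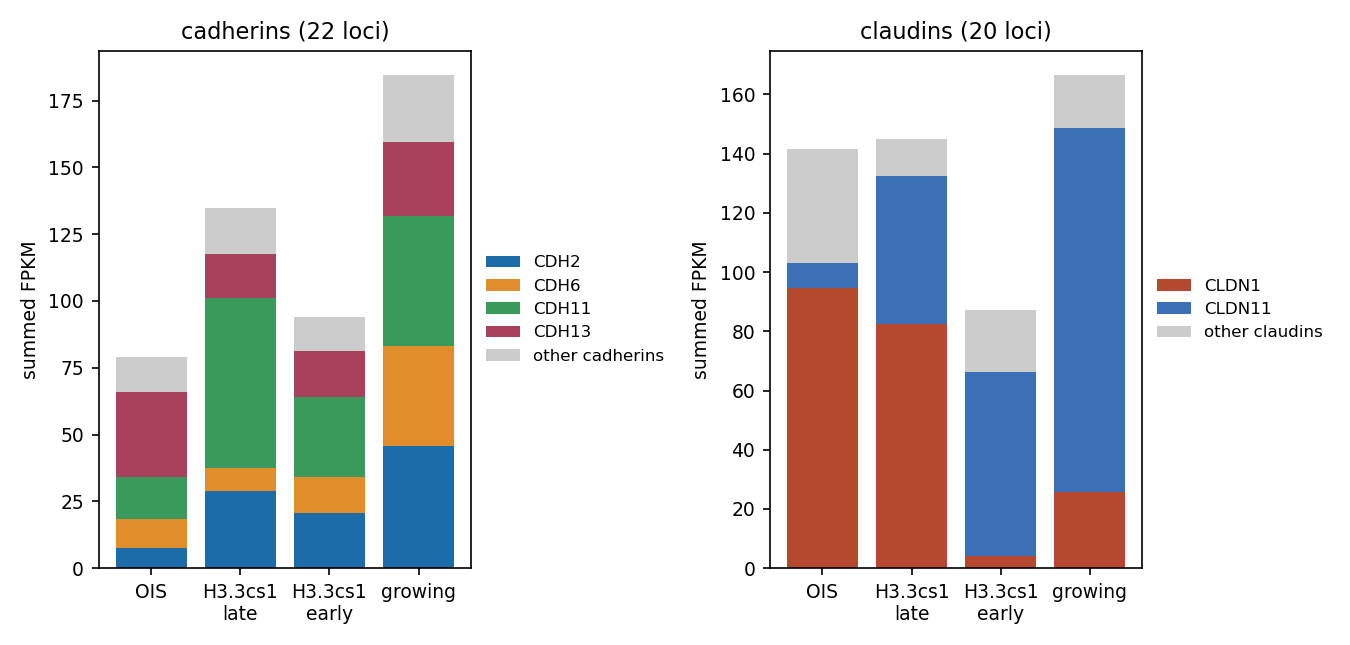
Summed FPKM of the cadherins (22 loci) and claudins (20 loci) in each library, stacked by gene, with genes outside the 10 in grey. CLDN1 (red) fills most of the claudin bar in OIS and CLDN11 (blue) most of it in growing cells, and the cadherin bar is shortest in OIS.

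Among cadherins, CDH2, CDH6 and CDH11 fell in OIS against growing cells and CDH13 did not pass 2-fold. CDH2 stood at 7.54 FPKM in OIS, 29.0 in H3.3cs1 late, 20.7 in H3.3cs1 early and 45.9 in growing cells. Growing cells were highest and OIS was lowest, 2.54-fold under the next library. CDH2 fell 5.49-fold in OIS and 2.17-fold in H3.3cs1 early, was 1.56-fold below growing cells in H3.3cs1 late, and was 3.52-fold lower in OIS than in late. The early fall is small: its log2 difference was -0.867 after rescaling to the same sum and -0.992 after quantile normalization, under 2-fold in both.

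CDH11, the OB-cadherin of mesenchyme and osteoblasts, stood at 16.0 FPKM in OIS, 63.3 in H3.3cs1 late, 30.0 in H3.3cs1 early and 48.5 in growing cells. The late library was the highest and OIS the lowest. CDH11 fell 2.91-fold in OIS against growing cells and was 3.79-fold lower in OIS than in H3.3cs1 late, and it rose 2.08-fold in late against early. That rise also fell short of 2-fold after rescaling to the same sum (0.814 in log2) and after quantile normalization (0.902).

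CDH6 (K-cadherin), known from kidney and neural crest, stood at 10.7 FPKM in OIS, 8.56 in H3.3cs1 late, 13.4 in H3.3cs1 early and 37.3 in growing cells. Growing cells stood apart, 2.65-fold above the next library, and the other 3 lay close together. CDH6 fell 3.26-fold in OIS, 4.003-fold in H3.3cs1 late and 2.65-fold in H3.3cs1 early, and it was the only one of the 10 that fell in all 3 comparisons with growing cells.

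CDH13 (T-cadherin), which has no cytoplasmic part and is held in the membrane by a lipid anchor, stood at 31.5 FPKM in OIS, 16.5 in H3.3cs1 late, 17.1 in H3.3cs1 early and 27.9 in growing cells. OIS and growing cells lay 1.12-fold apart at the top, the H3.3cs1 libraries lay 1.04-fold apart below them, and no comparison passed 2-fold. The widest difference was 1.86-fold, between OIS and late.

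As a result the leading cadherin differed between libraries. Over the 22 cadherins, CDH13 held 39.8% of the summed FPKM in OIS and CDH11 20.2%, whereas CDH11 led with 47.0% in H3.3cs1 late, 31.9% in H3.3cs1 early and 26.3% in growing cells. CDH2 held 9.53% in OIS, 21.5% in late, 22.0% in early and 24.9% in growing cells. The sums were 79.1 FPKM in OIS, 135 in late, 93.9 in early and 184 in growing cells. The ratio of CDH13 to CDH2 was 4.18 in OIS, 0.568 in late, 0.829 in early and 0.609 in growing cells. CDH1, the epithelial E-cadherin, was listed at 0 in OIS and at no more than 0.116 FPKM elsewhere. Beside the cadherins, the summed fibroblast markers (7 genes with a locus of their own) were 4730 FPKM in OIS, 10627 in late, 5752 in early and 10128 in growing cells. CDH11 had the same order as that sum. COL1A1, COL1A2 and LUM each had it too, and DCN, FAP, PDGFRA and VIM did not. PDGFRA was highest in OIS, at 52.3 FPKM, with 18.5 in late, 17.1 in early and 27.3 in growing cells. The part of cell composition in these levels was not tested.

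Catenins and other partners tie cadherins to the cell's inside. Of 7 compared 1 rose in OIS, JUP (plakoglobin, 2.31-fold, to 63.8 FPKM against 27.0), beside 9.13% of all genes higher there. In H3.3cs1 late or early 0 passed. CTNNB1, beta-catenin, lay between 84.4 and 102 FPKM, and CTNNA1, alpha-catenin, between 111 and 142. Of 18 other cadherins 4 were compared. CDH24 fell 4.89-fold and CDH4 (R-cadherin) 3.74-fold in OIS, and CDH20 rose 2.23-fold there, to 9.90 FPKM against 3.88. In H3.3cs1 late CDH4 fell 2.095-fold and CDH24 2.002-fold. Of 8 compared protocadherins and large cadherins, PCDH7 (5.16-fold) and FAT4 (2.70-fold) fell in OIS. PCDH18 (4.02-fold) and DCHS1 (2.07-fold) fell in H3.3cs1 late, and PCDH10 (2.09-fold) fell in H3.3cs1 early. The shares of all genes that were lower were 8.17% in OIS, 5.47% in late and 3.96% in early. DSP, the desmosome linker desmoplakin, fell 2.77-fold in OIS, to 3.93 FPKM against 12.6, the only 1 of 4 compared desmosome genes to pass there. DSG2, a desmosomal cadherin, rose 2.16-fold in H3.3cs1 early, to 3.47 FPKM against 1.07 in growing cells. PKP2, a plakophilin of the desmosome, rose 2.03-fold in H3.3cs1 late, to 1.27 FPKM against 0.118 in growing cells, and entered through the late library alone. Beside these rises, 1.4% of all genes were higher in early and 3.51% in late.

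Transcription factors of epithelial to mesenchymal transition and proteases that shed adhesion proteins were also examined. ZEB1, a repressor of epithelial cadherin genes, rose 2.95-fold in OIS to 57.4 FPKM and fell 2.21-fold in H3.3cs1 late to 7.95, against 18.8 in growing cells, and was the only 1 of 6 such factors to pass in either comparison. SNAI2 lay at 15.2 FPKM in OIS, 22.5 in late, 34.2 in early and 28.7 in growing cells. Of 8 compared proteases ADAM19 rose 2.09-fold in OIS and ADAM12 2.04-fold in H3.3cs1 late. Of all genes, 9.13% were higher in OIS and 3.51% in late, and 8.17% were lower in OIS and 5.47% in late. ADAM10, which is known to shed CDH2 and L1CAM, lay between 39.5 and 46.0 FPKM, and ADAM17, which is known to shed VCAM1 and ICAM1, between 8.90 and 9.40.

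**Figure D4:**
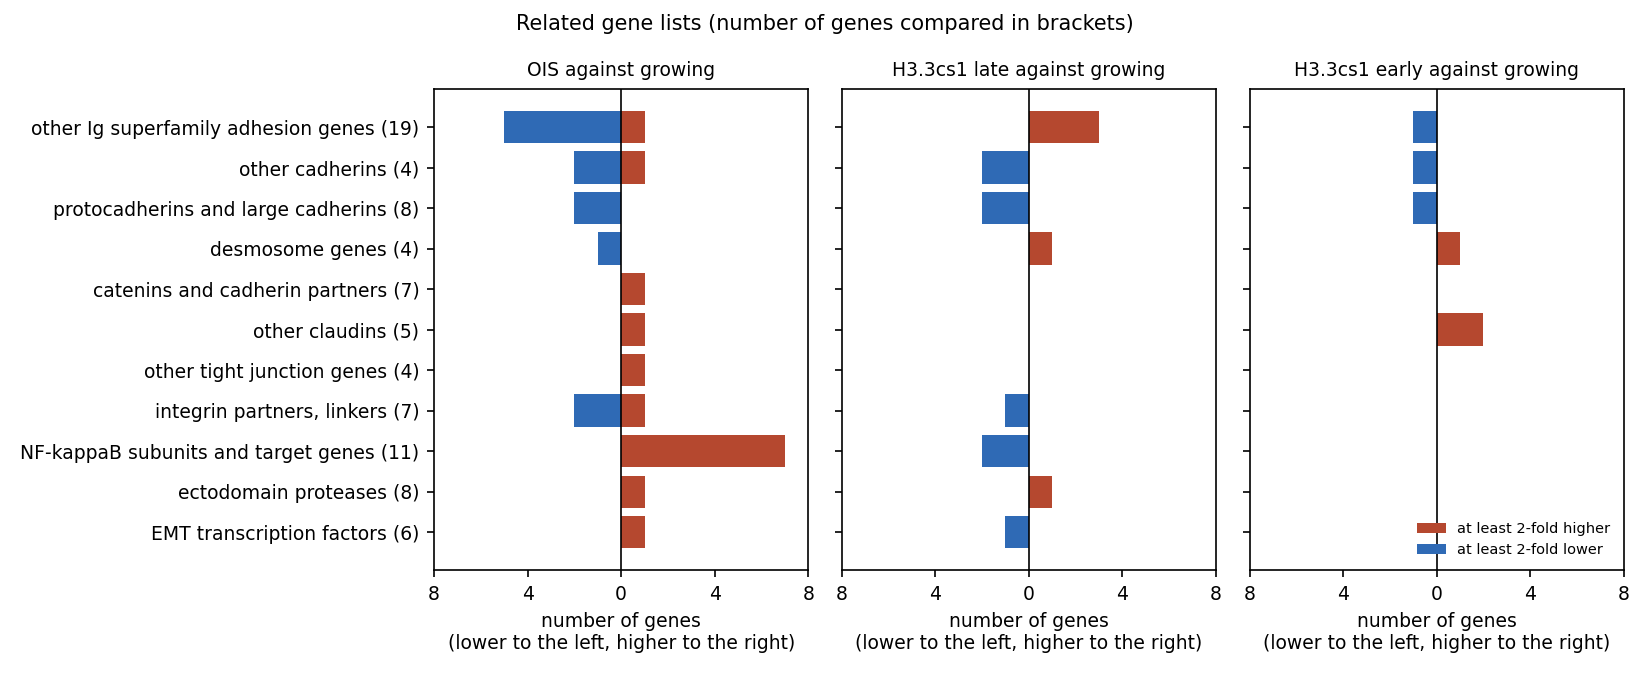
Number of genes of each related list at least 2-fold higher (red, to the right) or lower (blue, to the left) in OIS, H3.3cs1 late and H3.3cs1 early against growing cells, with the number compared in brackets. The NF-kappaB list has 7 of 11 genes to the right in OIS and 2 to the left in H3.3cs1 late. Of all genes, 9.13% were higher in OIS and 5.47% lower in H3.3cs1 late.

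The order of libraries was read for each gene by the gaps between neighbours. Of the 30 gaps (3 for each of 10 genes) 8 were at least 2-fold and 22 were not, so most neighbours in an order were not set apart by the rule. CLDN1 had 2 such gaps, above and below growing cells. VCAM1 and L1CAM had 1 each, between OIS and the lower pair, and the ICAM1,ICAM4 locus had 1, below OIS. CLDN11 and CDH2 had 1 each, above OIS, and CDH6 had 1, below growing cells. MCAM, CDH11 and CDH13 had none.

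Among 8555 single-gene loci with an FPKM of at least 5 in some library and no value of 0, the nearest profile to each of the 8 genes that varied at least 2-fold was found by the Euclidean distance between mean-centred log2(FPKM + 1) values over the 4 libraries. For VCAM1 it was COL4A5, a basement membrane collagen chain (distance 0.33), with 25.0 FPKM in OIS, 24.8 in late, 4.87 in early and 8.30 in growing cells. For the ICAM1,ICAM4 locus the nearest were CXCL10, a chemokine (0.43), and IL1A, an inflammatory cytokine (0.44), both high in OIS alone at 39.0 and 41.0 FPKM. Outside OIS they had no more than 0.142 and 0.122 FPKM, so both entered through OIS alone. For L1CAM it was CYP26B1, an enzyme that breaks down retinoic acid (0.50). CYP26B1 had 5.90 FPKM in OIS, 6.45 in late, 0.0226 in early and 0.121 in growing cells, so it entered through OIS and late alone. For CLDN1 it was ANGPTL4, a secreted inhibitor of lipoprotein lipase (0.33), with 94.8, 93.3, 5.38 and 23.1 FPKM in the same order, followed by F3, tissue factor (0.70).

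For CLDN11 the nearest was CHRM2, a muscarinic receptor (0.58), and for CDH2 it was TMEM109 (0.24), with PCDH7, a protocadherin, next but 1 (0.27). CDH6 lay closest to KPNA2, a nuclear import factor (0.05), CCNF, a cyclin (0.09), and RRM1, a subunit of ribonucleotide reductase (0.12). CDH11 lay closest to PDE1C, a phosphodiesterase (0.10), and COL1A2, a chain of type I collagen (0.11). COL1A2 had 691 FPKM in OIS, 2720 in late, 1242 in early and 2200 in growing cells. With 4 libraries a short distance is a description of these profiles and says nothing of shared control.

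**Figure D5:**
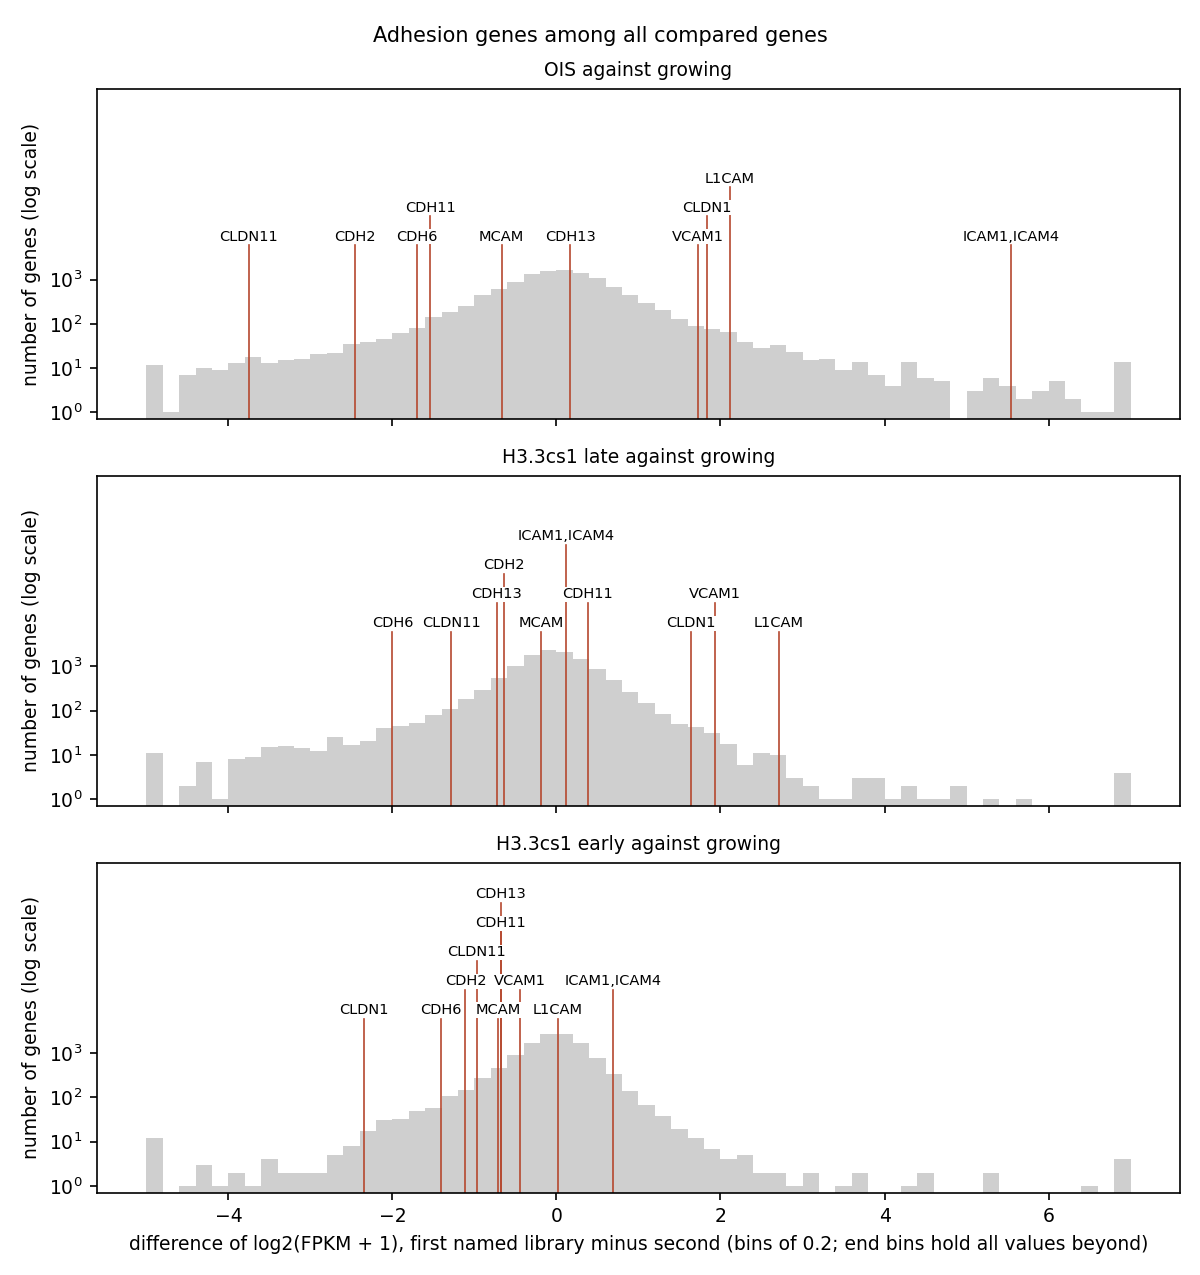
Number of genes (log axis) by difference of log2(FPKM + 1), in bins of 0.2, for OIS, H3.3cs1 late and H3.3cs1 early against growing cells, over 12183 genes, with the adhesion genes as red lines. ICAM1,ICAM4 stands in the upper tail in OIS, L1CAM in that of H3.3cs1 late and CLDN1 in the lower tail of H3.3cs1 early.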

How the data were processed

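The deposited values are FPKM, 1 value per locus and library, made by the authors; Cufflinks 2.1.1, TopHat2 2.0.3, Bowtie2 and the build hg19 are listed, without role or order, in the submitters' processing notes. The sources used here give no read counts, strand handling, treatment of multiply mapped reads or scaling between libraries. Per the file headers, each header line is 1 name short, so the sample of a file was taken from its record and not from its header. Depth is unknown. Ratios to growing cells were binned among loci under 0.05 FPKM in both libraries. The commonest bin held 28 of 670 loci for OIS, 17 of 685 for H3.3cs1 late and 99 of 824 for H3.3cs1 early. No ratio of depths is drawn from such small shares.

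Loci without a gene name (2310 of 26468) were left out and lines of 1 name were summed. Genes that reached 1 FPKM in 1 library or more (12183, of which 599 are joined loci) were compared as log2(FPKM + 1) in 5 comparisons, with 2-fold as the size rule, in Python 3.11.15 with pandas 2.3.3. No test was possible with 1 library per group. How often the size rule errs in these libraries was not tested, because the spread between replicates is unknown. List counts use genes with a locus of their own. Where a list has few genes, 1 past 2-fold can lie near the share over all genes of that comparison. Named are the 10 genes, HRAS, H3F3A and H3F3B, up to 4 genes past 2-fold of each list and comparison, and the 3 nearest profiles; other genes named with values under 2-fold were chosen after their values were seen. The members and lists were chosen with earlier results of these data known. Promoter windows are from RefSeq, GRCh38.p14, and no other position is given because the files hold no coordinates. The alternatives were 11 settings of pseudocount, filter, scaling, joined loci, lines, zeros and size rule.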

Additional observations from a re-analysis of the deposited data

Results flagged for a closer look

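Genes whose difference from growing cells had opposite signs in 2 libraries that were themselves at least 2-fold apart are given here. With 1 library per group the difference was not tested, and the growing library is shared by both sides. CDH11 was lower in OIS (-1.54 in log2) and above growing cells in H3.3cs1 late (0.38), a difference of -1.92 between OIS and late. It was also above growing cells in late and below in H3.3cs1 early (-0.68), 1.06 apart. VCAM1 was higher in late (1.93) and below growing cells in early (-0.44), 2.37 apart. CLDN1 was higher in late (1.64) and lower in early (-2.35), 3.99 apart, and was the only 1 of them past 2-fold on both sides of growing cells.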

How the results depend on the processing

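Of 445 member differences recomputed under the 9 alternatives that keep the 2-fold rule, 441 kept their call and 4 fell short of 2-fold: CDH2 in H3.3cs1 early against growing cells (-0.867 after rescaling to the same sum and -0.992 after quantile normalization) and CDH11 in H3.3cs1 late against early (0.814 and 0.902). Of these 9, the alternatives of filter, lines, joined loci and zeros could not move a member's value. Each member had 1 line, no value of 0 and at least 5 FPKM in some library. Only the pseudocount and scaling alternatives could change a call, so the tally of 441 overstates how far the calls were tried. No called difference changed sign. Rescaling to the same sum put the median of all genes at -0.16 in OIS and 0.19 in H3.3cs1 early against growing cells, -0.26 in late against early and -0.12 in OIS against late. Leaving out joined loci removes the ICAM1,ICAM4 locus, so in OIS against late the count of higher members was 0 in place of 1. With a size rule of 1.5-fold, early against growing cells had 1 higher and 7 lower members, late against growing cells 4 lower, late against early 1 lower and OIS against late 2 higher. With 3-fold, early and late each had 1 lower than growing cells. No paired analysis was possible because each group has 1 library, and for the same reason no replicate could be left out. Without read counts, the counting error of low values such as VCAM1 in H3.3cs1 early (0.760 FPKM) is unknown.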

Other observations

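Adhesion genes listed only within joined loci were left out of the counts, since their values cannot be divided. The CEACAM19,PVR locus, which holds the poliovirus receptor and nectin relative PVR, stood at 63.0 FPKM in OIS, 204 in H3.3cs1 late, 25.3 in H3.3cs1 early and 76.1 in growing cells. It was highest in late and lowest in early. The MMP14,MRPL52 locus, with the membrane protease MT1-MMP, stood at 1189 FPKM in OIS, 279 in late, 240.03 in early and 433 in growing cells, so OIS was alone in being high. The NFKBIZ,NXPE3 locus, with an NF-kappaB regulator, stood at 85.9 FPKM in OIS, 23.4 in late, 15.3 in early and 13.3 in growing cells. The FDX1L,ICAM3,RAVER1,ZGLP1 locus, with a further ICAM gene, lay between 47.3 and 50.7 FPKM, and the CLDN15,FIS1 locus between 91.2 and 100.2.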
